A study of Mus musculus with 6 samples.

Results

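The 32 genes described here serve sugar breakdown and the response to low oxygen. They are 17 glycolytic enzymes, 4 transporters of glucose or lactate and 11 targets of the hypoxia-inducible factors (Hif), taken by gene symbol from the 19489 genes of an mRNA-seq table of mouse embryonic stem cells (ESCs). All 32 were found in the table, and all 32 passed the filter on low values (a mean of at least 0.5 FPKM, a read count corrected for the length of the transcript and the depth of the library).

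The 6 libraries were OE-1, OE-2 and OE-D7 from *Dppa3* overexpressing (OE) ESCs and Con-1, Con-2 and Con-D7 from control (Con) ESCs, whose genotype is labelled wild type. By the methods for stable lines, OE colonies were picked under puromycin after *Dppa3* was brought in on a plasmid with a CAG promoter, Con cells received the vector alone, and the medium was high in glucose with serum and LIF. Which ESC line, and whether stable or transient cells, gave the mRNA-seq is not given in the sources used here, and the 6 strain labels all differ but run in sample order. No source explains the label D7 or says what sets libraries numbered 1 apart from those numbered 2. The averages of libraries 1 and 2 are headed D0 in the study's tables, so these 4 libraries are called D0 here. The titles number the libraries of each genotype as replicates, with the D7 library as number 3. The paper states in general that its experiments were repeated independently, but does not say this of the mRNA-seq or name separate cultures for it. The p-values therefore reflect only how these libraries vary, which may be technical.

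Library totals ran from 17408954 to 18176939 estimated counts. *Dppa3* stood at 279 FPKM in both OE-2 and OE-1, against 3.89 in Con-2 and 6.09 in Con-1, and at 131 in OE-D7, against 26.2 in Con-D7, so the overexpression followed the labels. The ESC marker *Pou5f1* stood at 312 FPKM in OE-D7 and 384 in Con-D7, against 575 to 683 in the D0 libraries. *Dppa5a* went the other way, at 2268 and 2083, against 1238 to 1701, the only 1 of 10 ESC markers above 0 in the D7 comparison. The 10 summed to 3572 FPKM in OE-D7 and 3527 in Con-D7, against 3609 to 3732 in the D0 libraries. By contrast, 8 trophectoderm markers summed to 1258 in OE-D7 and 703.5 in Con-D7, against 37.0 to 59.9 in the D0 libraries. In bulk RNA, fewer cells that express a gene and less of its RNA per cell cannot be told apart.

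Glycolysis splits glucose into pyruvate, and lactate dehydrogenase turns pyruvate into lactate, which regenerates the cofactor the pathway consumes. When oxygen is plentiful, prolyl hydroxylases mark the Hif alpha subunits for destruction. When oxygen is scarce, the alpha subunits persist, pair with Arnt and activate genes for glucose uptake, glycolysis, new vessels and sparing of mitochondria. Mouse ESCs use glycolysis as well as respiration, and cultures with serum hold a mixture of naive and more primed cells.

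The enzymes were abundant in all libraries. Together the 17 enzymes took 1.96% of all counts in OE-D7, 2.61% in OE-2 and 1.97% in OE-1, against 2.36% in Con-D7, 2.97% in Con-2 and 1.87% in Con-1. *Gapdh*, which oxidizes glyceraldehyde 3-phosphate and often serves as a reference gene, was the highest member in every library, at 5836 FPKM in OE-2, 4705 in OE-1, 6697 in Con-2 and 4546 in Con-1. *Car9*, a carbonic anhydrase on the cell surface that buffers acid, and *Adm*, which encodes the vessel-relaxing peptide adrenomedullin, were the lowest in the D0 libraries.

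**Figure D1:**
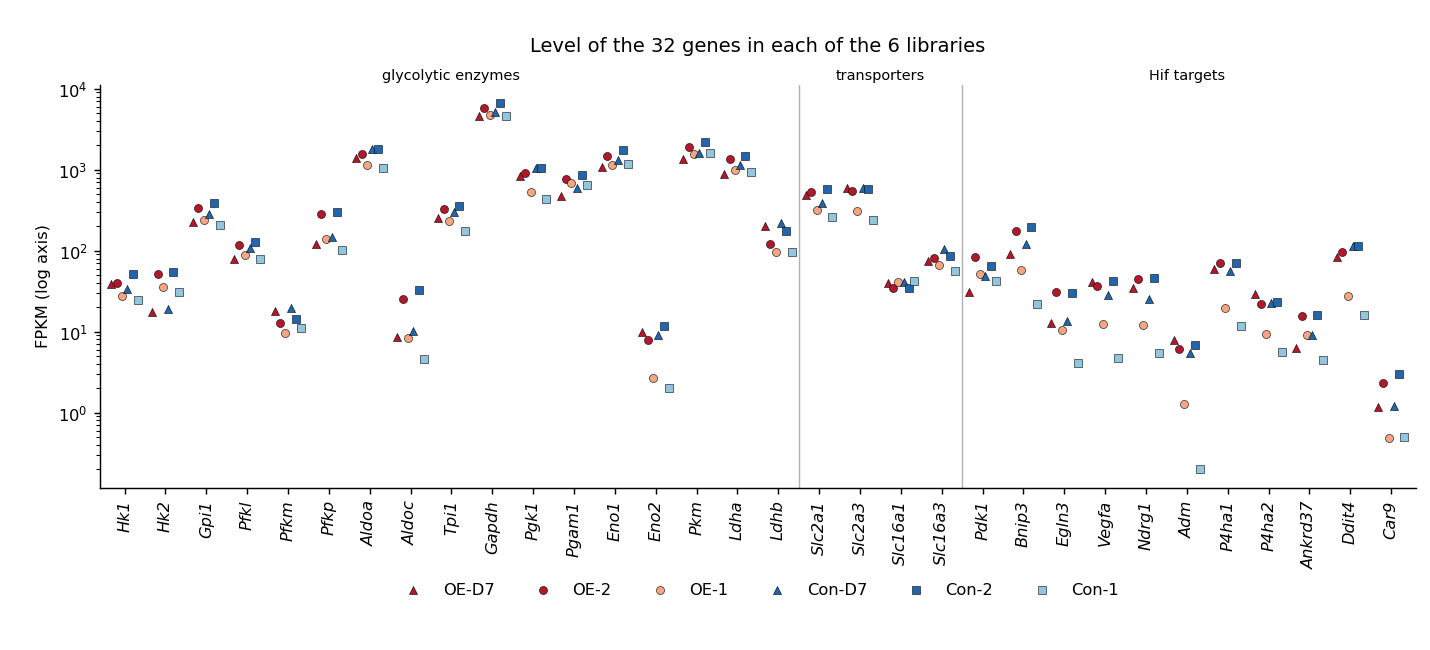
FPKM (log axis) of the 32 members in each of the 6 libraries, 1 point per library, with glycolytic enzymes at left, transporters in the middle and Hif targets at right. Of the D0 libraries, Con-1 (light blue squares) was the lowest for 26 of 32 members, a share not counted over all genes. *Adm* spans the widest range, from 0.20 FPKM in Con-1 to 7.85 FPKM in OE-D7.

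The members separated libraries numbered 2 from libraries numbered 1 in both genotypes. In the comparison of library 2 with library 1 over the 4 D0 libraries, with genotype as a term, 31 of 32 members rose and 1 fell (edgeR's quasi-likelihood test, adjusted p under 0.05 over all 13494 genes tested). Of all genes tested, 26.0% rose and 25.4% fell, so movement as such was common, while the members moved nearly all one way. The median log2 difference was 0.78 over the members and 0.02 over all genes. By class, it was 2.19 for the 11 Hif targets, 0.59 for the 4 transporters and 0.53 for the 17 enzymes. Both libraries numbered 2 lay above both libraries numbered 1 for 31 of 32 members, against 46.1% of all genes. The fit has 1 residual degree of freedom and leans on the spread shared across genes. DESeq2 gave 28 members higher and 1 lower, losing *Pfkm*, *Tpi1* and *Pgam1*, against 1573 higher and 2028 lower of all 13494 genes. A fit of all 6 libraries in 3 pairs also gave 28 and 1, against 2911 and 2722 of all 13809 genes. It lost *Pgam1*, *Slc16a3* and *Pdk1* (edgeR adjusted p = 0.142, 0.123 and 0.0979). Each Con library of D0 decided part of the count in that fit. Without Con-2 or without Con-1, 15 members rose and none fell, against 656 and 642 higher and 651 and 632 lower of 13807 and 13917 genes. The 15 were the same in both, namely 9 of the 11 Hif targets (*Pdk1* and *Ankrd37* were lost), *Pfkp*, *Aldoc*, *Pgk1*, *Eno2*, *Slc2a1* and *Slc2a3*.

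Among the Hif targets, *Bnip3*, whose product sends mitochondria to autophagy, had 173 FPKM in OE-2 and 197 in Con-2, against 57.9 in OE-1 and 22.1 in Con-1. Its log2 difference was 2.23 ± 0.21 (SE, adjusted p = 6.01e-07). Both libraries numbered 2 were high and close to each other, and Con-1 was the low library. *Vegfa*, the main growth factor for blood vessels, had 36.5 FPKM in OE-2 and 41.6 in Con-2, against 12.3 in OE-1 and 4.74 in Con-1, a log2 difference of 2.20 ± 0.21 (SE, adjusted p = 6.37e-07). *Ndrg1*, a stress-induced gene of the N-myc downstream regulated family, had 44.2 FPKM in OE-2 and 46.2 in Con-2, against 11.9 in OE-1 and 5.44 in Con-1. It rose by 2.35 ± 0.17 on the log2 scale (SE, adjusted p = 7.17e-08). For both genes the libraries numbered 2 did not overlap those numbered 1, and OE-1 lay above Con-1.

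*Adm* showed the steepest difference on few reads, at 6.13 FPKM in OE-2 and 6.82 in Con-2, against 1.26 in OE-1 and 0.20 in Con-1. These rest on 147 and 166 estimated counts in the libraries numbered 2, and on 31.0 and 5 in those numbered 1. Its log2 difference of 3.10 ± 0.38 (SE, adjusted p = 5.59e-06) had the largest standard error of the members. *Car9* was thin as well, at 2.33 FPKM in OE-2 and 3.03 in Con-2, against 0.48 in OE-1 and 0.50 in Con-1, and it rose by 2.32 ± 0.31 (SE, adjusted p = 1.2e-05). It was the one Hif target for which Con-1 was not the lowest of the D0 libraries.

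The collagen prolyl hydroxylases moved with the others. *P4ha1*, an alpha subunit of the enzyme that hydroxylates collagen, had 70.5 FPKM in OE-2 and 69.4 in Con-2, against 19.8 in OE-1 and 11.7 in Con-1. Its difference of 2.08 ± 0.13 (SE) had the smallest adjusted p of the members, 1.2e-08. *P4ha2*, the alternative alpha subunit, had 22.2 FPKM in OE-2 and 23.5 in Con-2, against 9.27 in OE-1 and 5.62 in Con-1, and rose by 1.55 ± 0.16 (SE, adjusted p = 8.76e-07). The libraries numbered 2 agreed closely between genotypes for both subunits.

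*Ddit4*, which encodes an inhibitor of mTORC1 signalling also known as Redd1, had 94.9 FPKM in OE-2 and 113 in Con-2, against 27.6 in OE-1 and 16.0 in Con-1. It rose by 2.19 ± 0.15 (SE, adjusted p = 5.92e-08). *Egln3*, a Hif prolyl hydroxylase that Hif itself induces, had 30.5 FPKM in OE-2 and 30.4 in Con-2, against 10.5 in OE-1 and 4.05 in Con-1, and rose by 2.07 ± 0.20 (SE, adjusted p = 6.27e-07). The mildest Hif targets were *Ankrd37*, an ankyrin repeat gene, and *Pdk1*, the kinase that shuts pyruvate out of the mitochondrial acetyl-CoA step. *Ankrd37* had 15.7 FPKM in OE-2 and 15.9 in Con-2, against 9.08 in OE-1 and 4.42 in Con-1, a difference of 1.18 ± 0.22 (SE, adjusted p = 0.000267). *Pdk1* had 82.8 FPKM in OE-2 and 64.4 in Con-2, against 52.1 in OE-1 and 42.2 in Con-1, a difference of 0.50 ± 0.07 (SE, adjusted p = 2.96e-05). The call for *Pdk1* was lost with all 6 libraries in 3 pairs (edgeR adjusted p = 0.0979).

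The enzymes are given in the order of the pathway. *Hk1* and *Hk2* encode hexokinases, which trap glucose in the cell as glucose 6-phosphate. They rose by 0.72 ± 0.10 and 0.58 ± 0.08 (SE, adjusted p = 2.54e-05 and 2.1e-05). *Hk2* had 51.2 FPKM in OE-2 and 54.3 in Con-2, against 35.7 in OE-1 and 30.5 in Con-1. *Gpi1*, the glucose 6-phosphate isomerase, rose by 0.61 ± 0.08 (SE, adjusted p = 1.24e-05).

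Phosphofructokinase, the main committing step, differed by isozyme. *Pfkp*, the platelet form, had 285 to 302 FPKM in the libraries numbered 2, against 101 to 139 in those numbered 1, and rose by 1.17 ± 0.09 (SE, adjusted p = 1.37e-07). The liver form *Pfkl* rose by 0.47 ± 0.08 and the muscle form *Pfkm* by 0.32 ± 0.12 (SE, adjusted p = 0.000134 and 0.0334). On the FPKM scale *Pfkp* made up 68.8% of the 3 forms in OE-2 and 68.0% in Con-2, against 58.5% in OE-1 and 53.2% in Con-1. The call for *Pfkm* was lost in DESeq2 (adjusted p = 0.238) and without the filter on low values (edgeR adjusted p = 0.0813).

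For aldolase and enolase, the minor isozyme showed the larger difference. *Aldoc*, the brain-type aldolase, had 25.3 FPKM in OE-2 and 33.1 in Con-2, against 8.33 in OE-1 and 4.62 in Con-1. It rose by 2.10 ± 0.19 (SE, adjusted p = 3.46e-07), while *Aldoa*, the main aldolase with 1041 FPKM or more in every library, rose by 0.53 ± 0.08 (SE, adjusted p = 2.3e-05). *Eno2*, the neuronal enolase, had 7.78 FPKM in OE-2 and 11.8 in Con-2, against 2.67 in OE-1 and 2.01 in Con-1, and rose by 2.02 ± 0.19 (SE, adjusted p = 6.22e-07). *Eno1*, the main enolase, rose by 0.39 ± 0.07 (SE, adjusted p = 0.000142). Both minor forms remained a small part of their step, with *Aldoc* at no more than 1.80% and *Eno2* at no more than 0.90% of the summed FPKM of their pair of isozymes in any library. *Eno1* has a near-identical copy, *Eno1b*, and *Gapdh*, *Pgk1* and *Ldha* have many processed copies in the mouse genome, so reads of these genes could be split or shared.

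Of the other enzymes of the later steps, *Pgk1* had the largest difference. This first enzyme to regain ATP had 922 FPKM in OE-2 and 1064 in Con-2, against 534 in OE-1 and 429 in Con-1, and rose by 0.95 ± 0.09 (SE, adjusted p = 5.56e-07). *Tpi1*, which interconverts the triose phosphates, rose by 0.67 ± 0.10 (SE, adjusted p = 2.65e-05), a call that DESeq2 did not make (adjusted p = 0.0526). *Gapdh* rose by 0.34 ± 0.07 and *Pkm*, the last enzyme of the pathway, by 0.29 ± 0.06 (SE, adjusted p = 0.000487 and 0.00116). *Pgam1*, which moves the phosphate of 3-phosphoglycerate, rose by 0.19 ± 0.07 (SE, adjusted p = 0.0303), and this call did not hold in DESeq2 (adjusted p = 0.176), without the filter (edgeR adjusted p = 0.112) or with all 6 libraries in 3 pairs (edgeR adjusted p = 0.142). *Ldha* and *Ldhb*, the lactate dehydrogenase subunits of muscle and heart type, rose by 0.47 ± 0.07 and 0.51 ± 0.10 (SE, adjusted p = 2.71e-05 and 0.000401).

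The glucose carriers *Slc2a1* and *Slc2a3* (Glut1 and Glut3) were present at nearly equal FPKM in the D0 libraries. *Slc2a1* had 532 FPKM in OE-2 and 580 in Con-2, against 321 in OE-1 and 259 in Con-1, and rose by 0.85 ± 0.08 (SE, adjusted p = 7.35e-07). *Slc2a3* had 549 FPKM in OE-2 and 574 in Con-2, against 312 in OE-1 and 240.4 in Con-1, and rose by 0.94 ± 0.08 (SE, adjusted p = 3.04e-07). The lactate carriers parted. *Slc16a3* (Mct4), a lactate exporter of glycolytic cells that Hif induces, rose by 0.34 ± 0.08 (SE, adjusted p = 0.00291), a call lost with all 6 libraries in 3 pairs (edgeR adjusted p = 0.123). *Slc16a1* (Mct1) was the only member that fell, with 34.1 FPKM in OE-2 and 34.4 in Con-2, against 40.8 in OE-1 and 42.6 in Con-1, a difference of -0.38 ± 0.08 (SE, adjusted p = 0.000538). In the fit of 3 pairs this call was lost without Con-2 or without Con-1 (edgeR adjusted p = 0.0803 and 0.104).

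**Figure D2:**
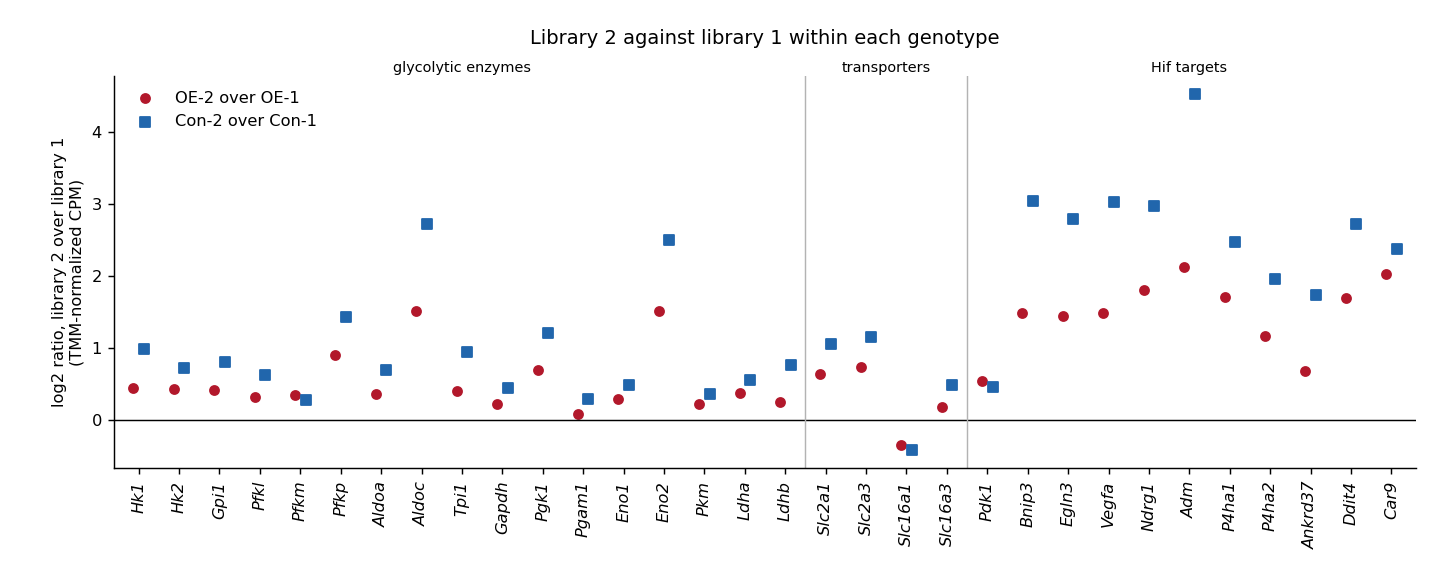
Log2 ratio of library 2 to library 1 for each member, from TMM-normalized CPM (counts scaled to library size), in OE (circles) and Con (squares), 1 library over 1 library in each point. All points lie above 0 except those of *Slc16a1*, and 29 of 32 members have the larger ratio in Con.

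The ratio of library 2 to library 1 was larger in Con than in OE for 29 of 32 members, against 50.4% of all genes. Its median over the Hif targets was 1.49 in OE and 2.72 in Con on the log2 scale. *Bnip3* was 2.98-fold higher in OE-2 than in OE-1 and 8.89-fold higher in Con-2 than in Con-1, and *Vegfa* 2.98-fold and 8.78-fold. With 1 library per cell of this comparison no test of the difference between genotypes was possible.

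Genes of the same pathways outside the 32 members differed by list in the same fit, in which 26.0% of all genes rose and 25.4% fell. Of 33 further Hif targets tested, 26 rose and 3 fell, with a median log2 difference of 0.61, so most moved the same way as the members. Those that rose include *Ero1l*, an oxidase of protein folding in the endoplasmic reticulum (1.52 ± 0.11, SE), *Plod2*, a collagen lysyl hydroxylase (1.00 ± 0.08, SE), *Loxl2*, a collagen crosslinking oxidase (1.75 ± 0.15, SE), and *Bhlhe40*, a transcriptional repressor (2.24 ± 0.22, SE), while *Rcor2*, a corepressor of the REST family, fell by 0.94 ± 0.08 (SE). Of 10 regulators of the Hif pathway, 3 rose and 4 fell. *Hif1a*, the oxygen-labile subunit, fell by 0.59 ± 0.08 (SE, edgeR adjusted p = 1.88e-05), with 31.3 FPKM in OE-2 and 29.0 in Con-2, against 40.7 in OE-1 and 43.9 in Con-1. *Hif3a*, a family member with forms that restrain the others, rose by 2.14 ± 0.14, and *Egln1*, the main Hif prolyl hydroxylase, by 1.16 ± 0.16 (SE, edgeR adjusted p = 3.52e-08 and 1.59e-05). Hif activity is set mainly at the protein level, which mRNA-seq does not measure.

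Of 8 pentose phosphate genes, which branch off glucose 6-phosphate, 1 rose and 3 fell. *Pgd* fell by 0.67 ± 0.08 and *G6pdx*, the entry enzyme, by 0.50 ± 0.08 (SE). Of 14 genes for pyruvate entry to mitochondria, 7 rose and 1 fell, led by *Pdk4*, a further pyruvate dehydrogenase kinase (1.55 ± 0.20, SE). Of 14 other glycolysis isozymes and regulators, 5 rose and 2 fell, among them *Tigar*, a bisphosphatase that restrains glycolysis in human cells (fell by 1.04 ± 0.12, SE). Of 5 other sugar and lactate transporters, 3 rose and none fell, among them *Bsg*, the chaperone of the lactate carriers (0.47 ± 0.07, SE). 

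Other lists moved between the same libraries. Of 16 genes of the amino acid and endoplasmic reticulum stress response, 11 rose and 3 fell, with *Ddit3* (Chop) at 58.0 FPKM in OE-2 and 71.9 in Con-2, against 8.11 in OE-1 and 4.29 in Con-1 (3.17 ± 0.19, SE). Of 4 Myc family genes, none rose and 3 fell, *Mycn* by 1.25 ± 0.10 and *Myc* by 1.38 ± 0.15 (SE). Of 10 ESC markers, 1 rose and 5 fell, among them *Klf2* (fell by 0.97 ± 0.07, SE) and *Nanog* (fell by 0.69 ± 0.07, SE). Their part in the members' difference was not tested.

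Since Hif binds DNA at sites with the core ACGTG or GCGTG, the 250 bases before each transcription start were searched for both words on both strands in RefSeq promoters (GRCm38.p6). The words overlap the E-box CACGTG, which other factors bind. Promoters of 30 of 32 members were in the table, with *Ndrg1* and *Slc2a3* without an entry. At least 1 match was present in 34 of 43 promoters of these members (79.1%), against 38.6% of all 32851 promoters and 54.7% of the 13719 promoters of genes tested. For ACGTG alone the shares were 46.5% of member promoters, 16.6% of all promoters and 21.3% of promoters of genes tested. By gene, all 10 Hif targets with an entry held either word in at least 1 of their promoters, as did 14 of 17 enzymes and the 3 transporters. For *Vegfa*, the promoter further upstream (chr17:46032378-46032627) held 0 matches and the other held 2. For *Pdk1*, 1 promoter held 1 match and the other 0. The share by gene was 60.5% of genes tested and 41.5% of all genes with an entry. Matches are counted on each strand, so that a CACGTG counts as 2. A match is a description of the letters and does not show binding.

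Promoter stretches of 5 members are given to show how matches stand beside the differences, 4 genes that rose to different extents and the one that fell. The 250 bases before the start are written 5′ to 3′ on the strand of the gene in GRCm38.p6 coordinates, with both words and their reverse complements in capitals.
Bnip3, chr7:138909507-138909756, minus strand: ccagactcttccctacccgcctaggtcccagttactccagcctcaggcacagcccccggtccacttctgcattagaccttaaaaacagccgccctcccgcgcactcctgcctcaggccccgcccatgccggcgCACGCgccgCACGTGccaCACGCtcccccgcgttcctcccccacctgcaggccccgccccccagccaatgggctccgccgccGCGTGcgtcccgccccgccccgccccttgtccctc
P4ha1, chr10:59323046-59323295, plus strand: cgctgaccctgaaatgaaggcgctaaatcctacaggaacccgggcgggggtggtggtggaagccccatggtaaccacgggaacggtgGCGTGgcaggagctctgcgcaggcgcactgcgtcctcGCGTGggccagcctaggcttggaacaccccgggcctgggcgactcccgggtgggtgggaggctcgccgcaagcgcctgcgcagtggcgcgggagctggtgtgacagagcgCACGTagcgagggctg
Pgk1, chrX:106186850-106187099, plus strand: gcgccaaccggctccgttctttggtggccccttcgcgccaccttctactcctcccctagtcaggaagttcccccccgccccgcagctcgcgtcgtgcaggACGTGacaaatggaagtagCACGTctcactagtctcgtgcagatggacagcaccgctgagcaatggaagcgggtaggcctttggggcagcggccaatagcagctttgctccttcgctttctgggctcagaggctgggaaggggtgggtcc
Ldha, chr7:46845554-46845803, plus strand: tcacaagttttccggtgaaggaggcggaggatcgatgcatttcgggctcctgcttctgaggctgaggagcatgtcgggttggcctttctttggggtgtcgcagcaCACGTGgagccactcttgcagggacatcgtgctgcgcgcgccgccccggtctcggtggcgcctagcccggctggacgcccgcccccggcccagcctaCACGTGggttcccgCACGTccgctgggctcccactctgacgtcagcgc
Slc16a1, chr3:104638414-104638663, plus strand: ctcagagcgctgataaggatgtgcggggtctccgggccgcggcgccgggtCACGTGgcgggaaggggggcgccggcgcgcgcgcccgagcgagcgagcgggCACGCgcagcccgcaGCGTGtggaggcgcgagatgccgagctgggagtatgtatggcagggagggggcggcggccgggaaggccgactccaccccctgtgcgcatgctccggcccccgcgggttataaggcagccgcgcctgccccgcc
*Bnip3* (log2 difference 2.23) held 5 matches and *P4ha1* (2.08) held 3, while *Pgk1* (0.95) held 2 and this promoter of *Ldha* (0.47) held 5. *Slc16a1*, the member that fell, held 4. The other promoter of *Ldha* held 1. These 5 promoters are examples chosen from 43, and a relation between matches and differences was not tested.

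Whether the D7 libraries differed from the D0 libraries was tested over all 6 libraries with genotype as a term. No member rose and 1 fell, *Hk2*, against 6.77% of the 13809 genes tested that rose and 3.06% that fell. Without adjustment edgeR gave 2 higher and 2 lower at p under 0.05, against 2258 and 1864 of all genes. DESeq2 called 2 higher and 2 lower, against 1499 and 995. With limma 0 were higher and 1 lower, against 958 and 606. *Hk2* had 17.6 FPKM in OE-D7 and 19.3 in Con-D7, against 51.2 and 35.7 in OE-2 and OE-1 and 54.3 and 30.5 in Con-2 and Con-1. Both D7 libraries lay below all 4 D0 libraries, and *Hk2* fell by 1.22 ± 0.25 on the log2 scale (SE, edgeR adjusted p = 0.0408). The call was lost without OE-1, OE-2, OE-D7 or Con-D7 (adjusted p = 0.0738, 0.0983, 0.527 and 0.278). *Hk2* made up 31.1% of the hexokinase FPKM of *Hk1* and *Hk2* in OE-D7 and 36.7% in Con-D7, against 51.2% to 56.1% in the D0 libraries.

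With the pair number as a block, which compares each D7 library with the D0 libraries after the difference between pairs 1 and 2 is taken out, 11 members rose and 6 fell, against 25.6% and 23.6% of all genes. The 11 were *P4ha2*, *P4ha1*, *Ddit4*, *Adm*, *Vegfa* and *Ndrg1* of the Hif targets, the transporter *Slc2a3*, and the enzymes *Ldhb*, *Pfkm*, *Eno2* and *Pgk1*. Those that fell were *Hk2*, *Pgam1*, *Pkm*, *Eno1*, *Pfkp* and *Pdk1*. The members' median was 0.08 on the log2 scale, so the 32 did not move one way as they did between libraries 2 and 1. By class, the median was 0.59 for the 11 Hif targets, 0.21 for the 4 transporters and -0.12 for the 17 enzymes. Above 0 lay 8 of the 11 Hif targets, all 4 transporters and 7 of the 17 enzymes. In this fit the spread between pairs 1 and 2 does not count as error, and the D7 effect cannot be told apart from a difference of the third pair itself.

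The D7 library of Con lay within the span of libraries 1 and 2 for most members, that of OE for fewer. In OE this held for 14 of 32 members and 6 of 11 Hif targets, with 7 members above the span and 11 below. In Con it held for 26 of 32 and for all 11 Hif targets. The share of all genes within the span was not counted. For the Hif targets the span itself was wider in Con, with a median log2 ratio of library 2 to library 1 of 2.72 by CPM, against 1.49 in OE. A wider span holds a D7 value more readily. Libraries 1 and 2 lay further apart in Con for genes at large. Of 13809 genes, 2899 were past 1.5-fold higher and 1925 lower in Con-2 than in Con-1. In OE these were 2056 and 960. *Bnip3* had 90.1 FPKM in OE-D7, between 173 in OE-2 and 57.9 in OE-1, and 121 in Con-D7, between 197 in Con-2 and 22.1 in Con-1. *Ddit4* reached 113 FPKM in Con-D7, level with Con-2 at 113, and 83.2 in OE-D7, below OE-2 at 94.9. For *Ddit4* the D7 libraries were thus close to the libraries numbered 2, and for *Bnip3* they lay between 1 and 2.

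The members beyond the span in both genotypes were few. *Ldhb* had 202 FPKM in OE-D7 and 223 in Con-D7, against 122 and 96.3 in OE-2 and OE-1 and 175 and 96.4 in Con-2 and Con-1. *Pfkm* had 18.1 FPKM in OE-D7 and 19.3 in Con-D7, against 9.61 to 14.2 in the D0 libraries. Both lay above every D0 library, with log2 differences of 0.80 ± 0.22 and 0.66 ± 0.16 (SE, edgeR adjusted p = 0.0795 and 0.0577), and DESeq2 called both (adjusted p = 0.011 and 0.0104), as did edgeR without Con-2 (adjusted p = 0.00902 and 0.0323). *Ldhb* was 18.7% of the lactate dehydrogenase FPKM in OE-D7 and 16.3% in Con-D7, against 8.24% to 10.6% in the D0 libraries. *Slc2a3* also lay above libraries 1 and 2 of its genotype in both D7 libraries, and *Pgam1* below. *Pgam1* had 474 FPKM in OE-D7 and 586 in Con-D7, against 645 to 851 in the D0 libraries, a difference of -0.49 ± 0.13 (SE, edgeR adjusted p = 0.0683) that passed in DESeq2 (adjusted p = 0.0178) and in edgeR without Con-1 (adjusted p = 0.0341).

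**Figure D3:**
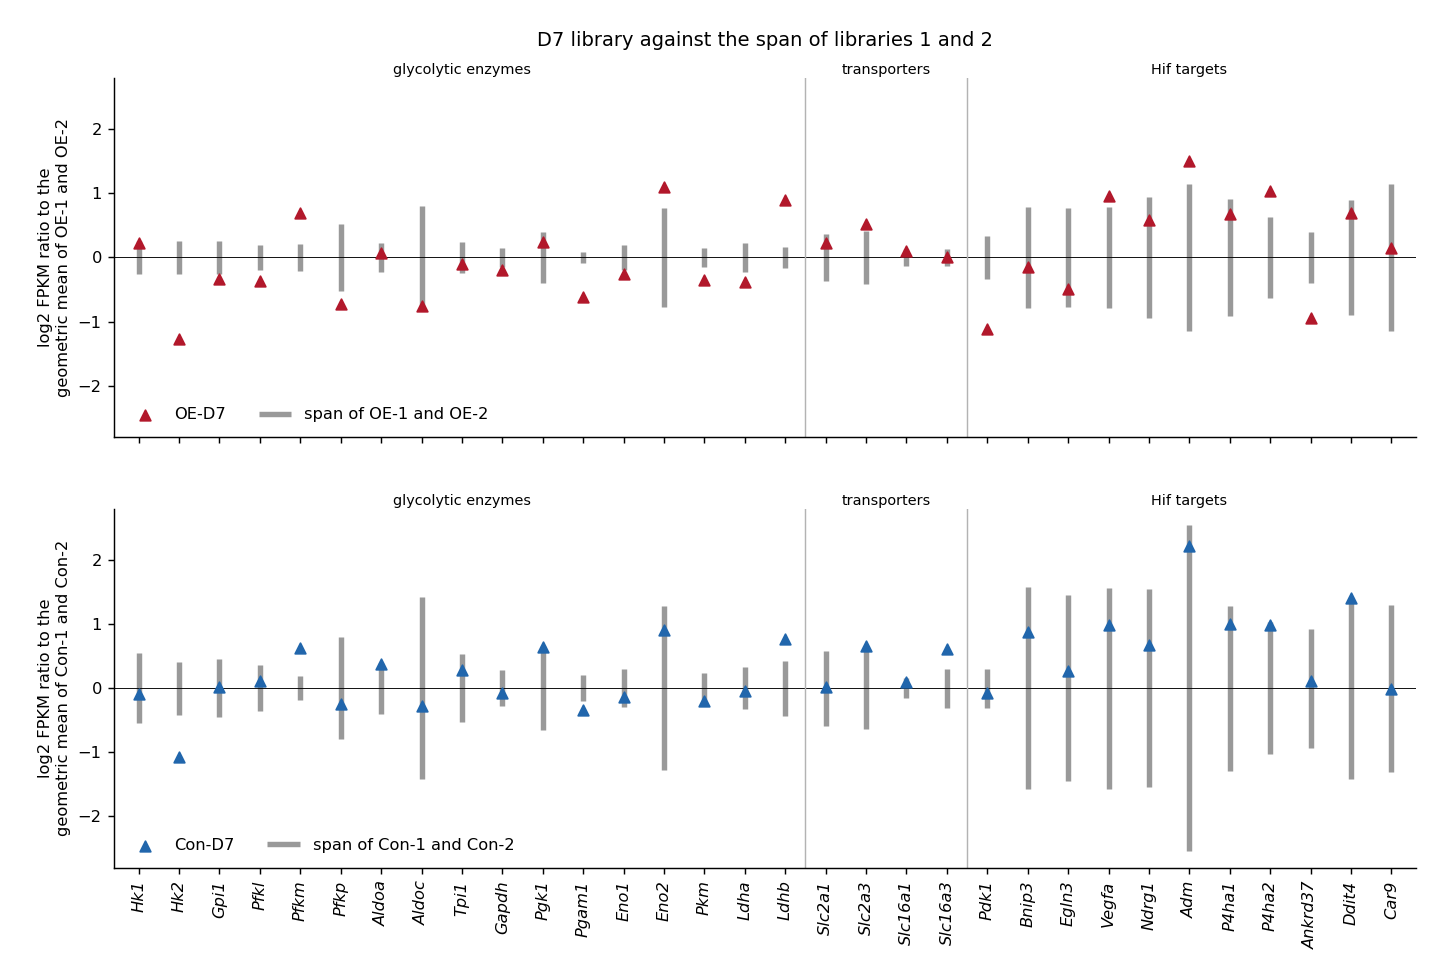
FPKM of each D7 library (triangles) as a log2 ratio to the geometric mean of libraries 1 and 2 of the same genotype, with grey bars from library 1 to library 2, OE above and Con below. *Hk2* and *Pgam1* lie below the bar and *Ldhb*, *Pfkm* and *Slc2a3* above it in both genotypes, while all 11 Hif targets lie within the bar in Con. The share of all genes within the bar was not counted.

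Markers of other cell types moved with the D7 label. Of 7 trophectoderm markers tested, 6 rose, *Krt8* to 421 FPKM in OE-D7 and 250.1 in Con-D7, against at most 17.0 in the D0 libraries. Of 10 fibroblast and feeder markers, 6 rose and none fell, *Col1a1* rising to 129 and 38.0 FPKM, against 0.80 to 1.81. *Thy1* of this list lay the other way, at 21.0 FPKM in OE-D7 and 22.95 in Con-D7, against 30.8 to 53.0 in the D0 libraries. With the pair number as a block, 7 of these 10 rose and 1 fell. The summed FPKM of the 13 fibroblast and feeder markers was 532 in OE-D7 and 266 in Con-D7, against 151 to 171. Of 10 ESC markers, 4 fell (*Esrrb*, *Klf4*, *Tfcp2l1* and *Pou5f1*) and none rose, while with the pair number as a block 8 fell and 1 rose. The part of other cell types in the members' D7 values was not tested.

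Within a genotype, 1 D7 library was set against 2 D0 libraries. In OE no member passed (0.210% of all genes did). Without adjustment edgeR gave 1 higher and 3 lower at p under 0.05, against 1412 and 777 of all 13809 genes. DESeq2 gave 1 lower (*Hk2*), against 513 higher and 141 lower of all genes, and limma none. Without Con-1 or without Con-2, *Ldhb* stood at 0.91, *Hk2* at -1.28 and *Pdk1* at -1.13 on the log2 scale in OE. In Con no member passed (0.0217% of all genes did), and DESeq2 and limma called none. Without adjustment edgeR gave none higher and 1 lower at p under 0.05, against 894 and 446 of all genes. Against Con-1 alone, with Con-2 left out, 12 members rose in Con-D7, 8 Hif targets among them, as did 708 of all 13807 genes, while 220 fell. Against Con-2 alone, *Hk2* in Con-D7 stood at -1.45 and the members' median at -0.35 on the log2 scale. These fits set 1 Con library against 1, which are assumed to vary like the OE libraries. No member passed the test of a difference in the D7 effect between genotypes (0% of all genes did). None had an unadjusted edgeR p under 0.05, and DESeq2 and limma called none. Without Con-2, *Bnip3* stood at -2.68 on the log2 scale in this comparison.

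Whether *Dppa3* overexpression changed the members was tested in OE against Con ESCs. Over the 4 D0 libraries no member passed (0% of all genes did), and none had an unadjusted p under 0.05 or was called by DESeq2 or limma. Over all 6 libraries with D7 as a term the counts were the same (0% of all genes). The median log2 difference over the members was -0.05 in the D0 libraries, with -0.11 for the enzymes. The standard error was 0.27 for *Pdk1* and 0.97 for *Eno2* on the log2 scale, so a 2-fold change of *Eno2* could not have been told from the spread between libraries.

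With the pair as a block no member passed either, against 0.889% of all genes over the D0 libraries and 0.00724% over all 6. Without adjustment edgeR gave 5 members higher and 3 lower in the D0 libraries at p under 0.05, against 583 and 490 of all 13494 genes. Over all 6 libraries it gave 0 higher and 4 lower, against 607 and 573 of all 13809 genes. *Pdk1* came nearest, at 0.30 ± 0.07 (SE, edgeR adjusted p = 0.0731), with 82.8 FPKM in OE-2 against 64.4 in Con-2 and 52.1 in OE-1 against 42.2 in Con-1. *Ldhb* followed at -0.31 ± 0.10 (SE, edgeR adjusted p = 0.249). Leaving out 1 Con library moved the D0 comparison either way. Without Con-2, 30 of 32 members lay above 0, with a median of 1.82 for the Hif targets. *Bnip3* stood at 2.27 and *Adm* at 4.05 on the log2 scale. Without Con-1, 2 of 32 lay above 0, with a median of -0.73 for the Hif targets. Each of these fits sets OE-1 and OE-2 against 1 Con library, so the difference between libraries 2 and 1 enters it. The lone Con library is assumed to vary like the OE libraries.

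Between pairs the members lay on different sides. Ratios of TMM-normalized CPM are given here. In pair 1 (OE-1 over Con-1), 10 members were past 1.5-fold higher and none lower, 9 of them Hif targets, against 5.00% and 1.72% of all genes, and the ratio was above 0 on the log2 scale for 25 of 32. In pair 2 (OE-2 over Con-2) it was above 0 for 1 of 32, with none past 1.5-fold higher and 1 lower (*Eno2*), against 3.88% and 2.25% of all genes. In the D7 pair it was above 0 for 8 of 32. None was past 1.5-fold higher and 1 was lower (*Pdk1*), against 6.09% and 3.58% of all genes. Of all 13809 genes, the ratio was above 0 for 6642 in pair 1, 6496 in pair 2 and 6977 in the D7 pair. By FPKM, OE was the higher for 26 members in pair 1, for 3 in pair 2 and for 9 in the D7 pair, so members close to 0 changed sides with the scale. Each pair is 1 library against 1, so no test applies.

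The Hif targets had a median log2 ratio of 0.99 in pair 1, -0.12 in pair 2 and -0.07 in the D7 pair. *Egln3* stood at 1.30, -0.04 and -0.10 in these pairs, and *Vegfa* at 1.31, -0.23 and 0.54. The enzymes kept to a narrower band, with medians of 0.13, -0.24 and -0.29. *Gapdh* stood at -0.02, -0.24 and -0.22, and *Ldha* at 0.01, -0.17 and -0.41. In pair 2, all 17 enzymes and 10 of 11 Hif targets were lower in OE than in Con by CPM, by less than 1.5-fold except for *Eno2* at -0.64. By FPKM *P4ha1* and *Egln3* were, like *Pdk1*, higher in OE-2 than in Con-2, by small margins.

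**Figure D4:**
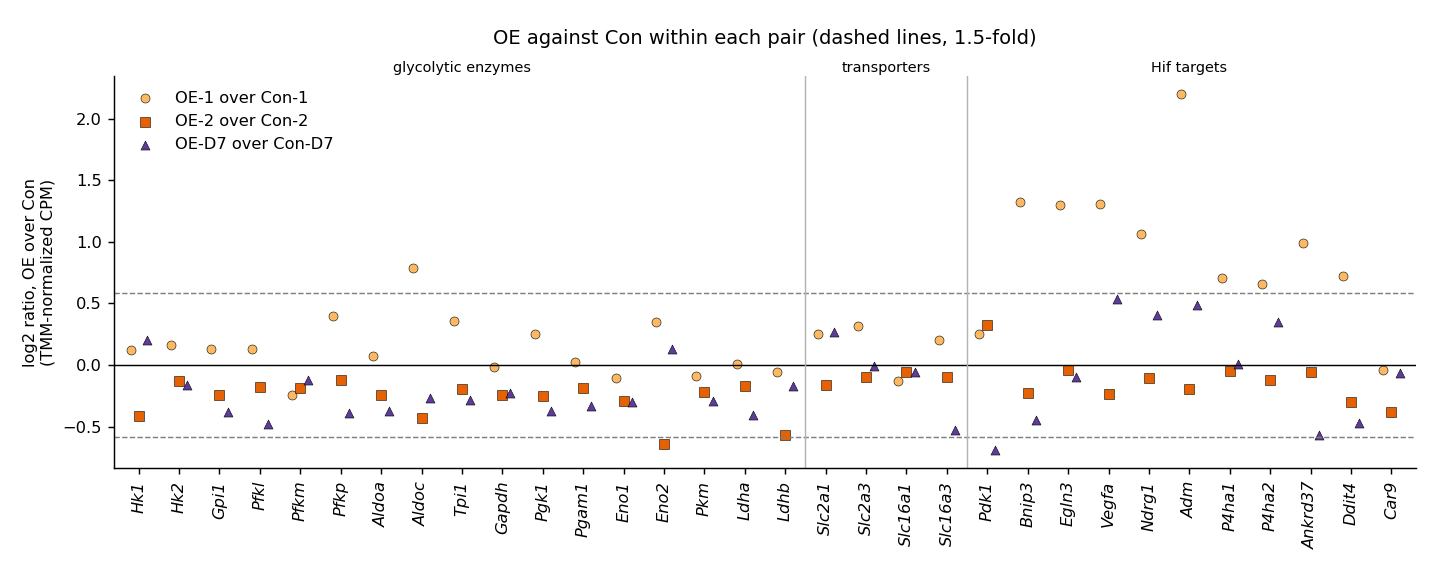
Log2 ratio of OE to Con for each member within pair 1 (circles), pair 2 (squares) and the D7 pair (triangles), from TMM-normalized CPM (counts scaled to library size), with dashed lines at 1.5-fold. The Hif targets reach 2.20 (*Adm*) in pair 1, while in pair 2 *Pdk1* alone lies above 0 (by FPKM also *P4ha1* and *Egln3*).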

How the data were processed

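Messenger RNA of 6 ESC libraries was sequenced on BGISEQ-500. Reads were mapped to mm10 with Bowtie2 and quantified with RSEM, per the paper's methods, and the submitters' processing notes list HISAT and GRCm38.p6. The authors deposited the estimated count of each gene without normalization. The authors also deposited FPKM, scaled for transcript length and depth. Versions are not given in the sources used here. The count columns of the D7 libraries are headed as averages but belong to 1 library each. Symbols turned into dates by a spreadsheet (26) were restored from the gene number.

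Estimated counts, 17408954 to 18176939 per library, were rounded and tested with edgeR 4.0.16 (TMM factors 0.944 to 1.05, quasi-likelihood F test, R 4.3.3), with Benjamini-Hochberg adjustment over 13494 genes (4 libraries) or 13809 genes (6 libraries) with a mean FPKM of at least 0.5. Alternatives were DESeq2 1.42.0, limma 3.58.1 on log2(FPKM + 0.5), DESeq2 size factors, no filter, the replicate block and leaving out each library. The comparisons within genotypes by other tools, and the fit of library 2 against 1 over 6 libraries, whole and without each library, were added after seeing the data. Ratios within pairs used log2 CPM with a prior count of 2. The fits were tested on simulated data.

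Deviations of OE and Con libraries of the same number from their genotype means correlated at 0.88, 0.76 and 0.89 over 12565 genes (other combinations at -0.03 or below), so the numbers were taken as pairs. Deviations from a genotype's own mean cancel out over its libraries, which pushes the other combinations towards negative values, so those add no separate support. The pairing comes from these values, since no source states it, and the fits with a block use the same values.

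All 32 members are named, of related lists the counts and examples from the up to 6 called genes with the smallest p. Members and lists were chosen with earlier results of these data known.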

Additional observations from a re-analysis of the deposited data

Results flagged for a closer look

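*Pdk1*, the kinase that restrains pyruvate dehydrogenase, changed direction between pairs. Its log2 ratio of OE to Con was -0.69 in the D7 pair (30.4 FPKM in OE-D7, 49.3 in Con-D7), against 0.25 in pair 1 and 0.32 in pair 2. The difference in the D7 effect between genotypes was -0.99 ± 0.47 on the log2 scale (SE, edgeR unadjusted p = 0.099, adjusted p = 1.00), which did not pass.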

How the results depend on the processing

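The comparison of library 2 with library 1 kept 28 to 31 members higher and 1 lower under the other tools and settings. Over 4 libraries it could not be repeated without a library, since no residual degree of freedom is left. Over 6 libraries in 3 pairs, leaving out 1 gave 15 to 31 higher and 0 to 1 lower, with 15 and 0 both without Con-2 and without Con-1, 23 and 1 without OE-2, and 28 and 1 without OE-1. For D7 against D0 the replicate block gave 11 members higher and 6 lower and DESeq2 gave 2 and 2, against 0 and 1. Leaving out 1 library gave 0 to 2 higher and 0 to 2 lower. For D7 in OE, DESeq2 gave 1 lower, and leaving out 1 library gave 0 to 1 higher and 0 to 2 lower. For D7 in Con, leaving out 1 library gave 0 to 12 higher and 0 to 1 lower, and for the difference between genotypes 0 to 1 lower. For OE against Con in the D0 libraries, leaving out 1 library gave 0 to 9 higher. At 2-fold in place of 1.5-fold, pair 1 had 5 members higher, and pair 2 and the D7 pair 0 lower; with log2(FPKM + 0.5), pair 2 had 0 lower. Some members changed sign when 1 library was left out. *Aldoc* in OE against Con ran from -1.14 to 1.75, *Ddit4* from -1.19 to 1.82, and *Egln3* for D7 in Con from -1.14 to 1.65, the last values being those without Con-2. Beyond these counts, the block changed no call of OE against Con. With 1 or 2 libraries per group, the spread between libraries 1 and 2 limits every OE and D7 comparison, and fewer reads limit *Adm* and *Car9*.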
